A study of Arabidopsis thaliana with 16 samples.

Results

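The late set comprised 37 of the 22810 probe sets of the array. They were chosen by their values: the difference between estradiol-induced and non-induced seedlings at 6 days had to be 0.6 or more (log2) in each of 3 silencing lines, the mean of the 3 differences at 3 days under 0.4, and the difference in empty-vector seedlings at 6 days under 0.3. Only probe sets with a log2 value of 4 or more in 3 or more arrays were considered, and autophagy genes and 3 further genes were left out by name. BETA-VPE was the 1 probe set that met the limits and was left out in this way. Because the 6 day and 3 day differences of the lines and the 6 day difference of the empty vector chose the members, they are described here without a test.

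The series measured total RNA of Arabidopsis thaliana seedlings in the Col-0 background on 16 single-colour arrays, 1 array per sample. The amiR-tor groups, in 3 transgenic lines numbered 9, 17 and 20, carried an artificial microRNA against the TOR gene behind a promoter switched on by estradiol. They were harvested after 6 or 3 days on 20 µM estradiol (induced, 3 arrays at each day) or on plates without it (non-induced, 3 arrays at each day). Seedlings with the empty vector pER8 (EV) gave 1 array for each of the same 4 conditions, and all seedlings were 2 weeks old when moved and had been raised on hygromycin in continuous light. The groups follow the sample titles; the series title names a different gene, and the descriptions of all samples mention an empty inducible vector.

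TOR is a protein kinase that couples growth to nutrient and energy supply. In plants its loss is known to slow growth and protein synthesis and to favour recycling of cell contents and storage compounds. No probe set was listed for TOR, so how far its transcript was silenced was not analysed here. The lines are the replicates, and nothing in the labels says whether the arrays of a line came from separate cultures. The leaf markers RCA, LHCB4.1 and LHCB4.2 (3 listed of 10) lay between 13.18 and 14.68 and the root marker PYK10 (1 listed of 8) between 13.08 and 13.7 on all arrays. None of the 8 flower markers was on a listed probe set.

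The arrays fell into 2 kinds. On 6 arrays the control for 25S ribosomal RNA lay between 5.27 and 6.66 and the 5′ minus 3′ difference of the actin control was -10.39 to -4.47 (log2), against 11.38 to 11.99 and -1.92 to -1.43 on the other 10. The low kind comprised line 9 with inducer at each day, and lines 17 and 20 at 3 days with and without inducer. Each 6 day difference of lines 17 and 20 was therefore measured within 1 kind of array, whereas in line 9 induction and kind of array cannot be told apart at either day. The empty-vector arrays were all of the high kind.

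Probe sets read RNA of whole seedlings, in which fewer cells of a type and less RNA per cell cannot be told apart. At 6 days the late set was higher on induction by a median of 1.16 in line 9, 1.18 in line 17 and 0.81 in line 20, which is 2.23-fold, 2.27-fold and 1.75-fold. Over all 13701 kept probe sets the medians were 0.04, 0.02 and 0.01. At 3 days the medians of the late set were 0.20, 0.15 and 0.14. The 6 day differences reached 2.96 in line 9, 2.46 in line 17 and 2.12 in line 20. Line 17 gave the largest difference for 19 members, line 9 for 14 and line 20 for 4, and line 20 gave the smallest for 23. A difference of 1 or more was found for 22 members in line 9, 23 in line 17 and 10 in line 20, and for 7 members in all 3 lines. Line 20 was thus the line with the smallest sizes, although each member had passed the same limit in it.

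**Figure D1:**
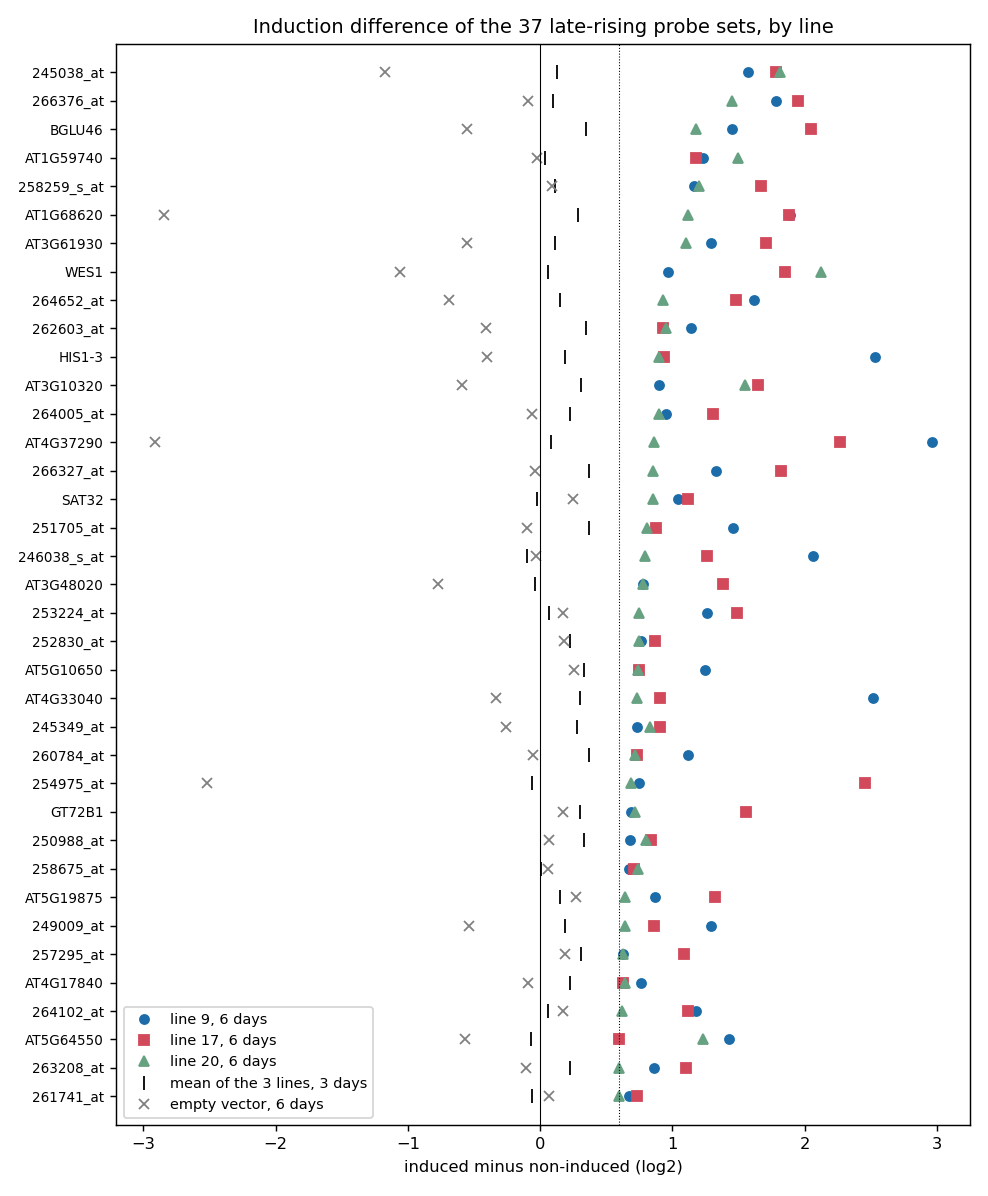
Induced minus non-induced difference (log2, x axis) of each of the 37 members (y axis, ordered by the smallest of the 3 line differences at 6 days). Circles, squares and triangles are lines 9, 17 and 20 at 6 days (points of similar value overlap), ticks the mean of the lines at 3 days and crosses the empty vector at 6 days; the dotted line marks the limit of 0.6. The line medians are 1.16, 1.18 and 0.81, and 5 members have an empty-vector cross at -1 or lower.

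The limit of 0.6 was met by 20.7% of the kept probe sets in line 9, 11.2% in line 17 and 4.79% in line 20, and by 266 of 13701, or 1.94%, in all 3. The 3 day limit then removed 223 of the 266 and the empty-vector limit 5 more. Turned downward, the same limits held for 14 probe sets, and with the days exchanged for 9. The lines decide who belongs: the limits gave 131 probe sets without line 9, 59 without line 17 and 144 without line 20, of which 32, 29 and 32 were among the 37. Just inside the 6 day limit lay AT5G64550 and 261741_at, both with a smallest line difference of 0.60, and just outside AT2G14095 and AT1G33110, both with 0.59.

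The 3 day limit was set on the mean of the lines, so single lines could differ more. Of the 37, 5 had a 3 day difference of 0.6 or more in line 9, 5 in line 17 and 4 in line 20, and 24 stayed under 0.6 in every line. Over all kept probe sets the shares of 0.6 or more were 25.4%, 8.07% and 3.78%, against 13.5%, 13.5% and 10.8% of the members, whose 3 day mean the rule capped. With the limit of 0.4 asked of each line at 3 days, 13 members remained. The most uneven member was 258675_at, whose 3 day differences were -0.49, 1.76 and -1.25 in lines 9, 17 and 20. In 36, 36 and 37 of the 37 members the difference at 6 days was larger than that at 3 days in lines 9, 17 and 20. The limits on both days favour this, so nothing is read from these counts.

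Of the 37 members, 16 were listed with a locus (43.2%, against 53.6% of the kept probe sets), 5 of these with a gene symbol, and 21 were not listed. Functions are given here only for the 5 and for AT1G59740, whose record names a transporter family. The functions of the other loci were not looked up, and a missing symbol does not mean that none is known. The functions given cover glycoside metabolism, hormone conjugation, chromatin, salt tolerance and transport, and none was shared by more than a pair of these members.

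Both members that act on glycosides read 7.99 or more on every array. BGLU46 (AT1G61820), a beta-glucosidase that releases lignin precursors from their glucosides, read 10.51, 10.59 and 9.17 in induced lines 9, 17 and 20 at 6 days, against 9.06, 8.54 and 7.99 in the same lines without inducer. Every induced value lay above every non-induced one at 6 days, with differences of 1.45, 2.05 and 1.18. At 3 days the differences were 0.67, -0.08 and 0.47. The empty vector read 8.92 with estradiol and 9.47 without it at 6 days, so the induced value of line 20 did not exceed the empty vector without estradiol.

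GT72B1 (AT4G01070), a glucosyltransferase known for detoxifying chlorinated phenols and anilines, read 10.77, 11.43 and 10.75 in induced lines at 6 days, against 10.08, 9.87 and 10.03 without inducer. Its differences of 0.69, 1.56 and 0.72 made line 17 stand out. At 3 days the induced lines read 8.87, 9.56 and 10.21 and the non-induced ones 9.41, 8.68 and 9.64. All 6 of the 3 day line arrays but that of line 20 with inducer lay below both empty-vector arrays of that day, 10.34 and 9.89; 5 of those 6 arrays were of the low kind, whose part in the level was not tested.

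WES1 (AT4G27260, also GH3.5) conjugates the hormone auxin with amino acids. It read 9.04, 9.31 and 8.58 in induced lines 9, 17 and 20 at 6 days, against 8.07, 7.46 and 6.46 without inducer. The 6 day groups did not overlap, and line 20 had the lowest level in each group. Its differences of 0.97, 1.85 and 2.12 at 6 days compare with 0.41, -0.28 and 0.06 at 3 days. The 3 day levels were 9.15, 8.23 and 7.43 with inducer and 8.74, 8.51 and 7.37 without it. In line 9 the induced level hardly differed between the days, 9.04 and 9.15, and the non-induced level was lower at 6 days, 8.07, than at 3 days, 8.74. In the empty vector WES1 was lower with estradiol at 6 days, at 6.71 against 7.77.

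HIS1-3 (AT2G18050), a variant of linker histone H1 known from drought-treated plants, read 10.64, 10.62 and 10.24 in induced lines at 6 days, the highest values of all 16 arrays for this gene. Without inducer the lines read 8.11, 9.68 and 9.34 on that day. The difference of 2.53 in line 9, against 0.94 and 0.90 in lines 17 and 20, therefore came with a low non-induced level in line 9 and not with a higher induced one. At 3 days the lines lay between 8.56 and 9.60 in both conditions, and the empty vector read 8.22 to 8.79 throughout.

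SAT32 (AT1G27760), named for its role in salt tolerance, differed by similar sizes in the 3 lines. It read 8.81, 8.64 and 8.47 with inducer at 6 days and 7.77, 7.52 and 7.62 without it, giving differences of 1.04, 1.12 and 0.85. At 3 days the lines differed in sign, by -0.81, 0.15 and 0.61, so the mean of -0.02 hides opposite values. AT1G59740 (NPF4.3), of a family of nitrate, peptide and hormone transporters, read 7.33, 6.08 and 6.43 with inducer at 6 days and 6.10, 4.90 and 4.93 without it. Line 9 was the highest in both 6 day groups, so these groups overlapped although the within-line differences were 1.23, 1.18 and 1.50. At 3 days all 6 line arrays lay between 4.93 and 5.23, and the empty vector between 4.92 and 5.36 over both days.

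**Figure D2:**
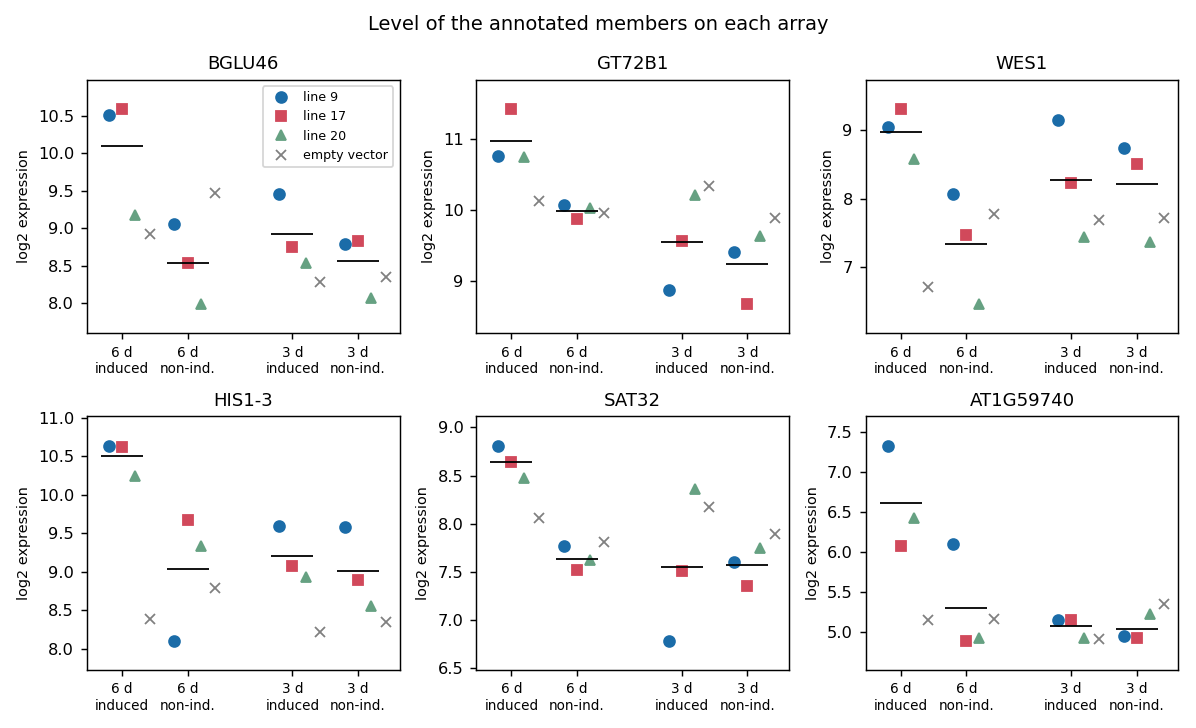
Level (log2 expression, y axis) of the 6 members whose function is given in the text on each array, by day and treatment (x axis). Coloured points are the 3 lines, short bars their means and crosses the single empty-vector arrays. HIS1-3, SAT32 and GT72B1 have their 3 highest values in the induced lines at 6 days, whereas BGLU46, WES1 and AT1G59740 overlap with other arrays.

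Among the loci without a symbol, AT4G37290 had the largest mean difference of the late set, 2.03 ± 1.07 (SD over lines, n = 3). It read 6.97, 6.64 and 4.54 in induced lines at 6 days, against 4.01, 4.37 and 3.68 without inducer. All 6 line arrays of 3 days lay between 3.12 and 4.01, so its 3 highest line values were those of the induced lines at 6 days. AT1G68620 read 8.13, 8.17 and 7.04 against 6.24, 6.29 and 5.92, differences of 1.89, 1.88 and 1.12. AT4G33040 differed mainly in line 9: it read 6.31, 4.87 and 4.61 with inducer at 6 days and 3.79, 3.96 and 3.88 without it. Its non-induced mean lay under 4, so its difference of 2.52 in line 9 starts from a level that may be dim.

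AT3G61930 had even levels without inducer, 5.31, 5.31 and 5.44 at 6 days, and read 6.60, 7.02 and 6.54 with it. AT3G10320 read 5.40, 5.98 and 5.46 with inducer against 4.50, 4.33 and 3.91, and AT3G48020 read 6.81, 7.71 and 6.65 against 6.03, 6.33 and 5.87. In these 3 loci the 6 day groups did not overlap. AT5G10650 had differences of 1.25, 0.75 and 0.74 in lines 9, 17 and 20. The other 3 loci, AT5G19875, AT4G17840 and AT5G64550, had mean differences of 0.94, 0.68 and 1.09.

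The 21 unlisted members had mean differences between 0.67 and 1.73, within the range of 0.67 to 2.03 of the whole set. The largest by smallest line difference was 245038_at, with 12.05, 11.24 and 10.23 in induced lines 9, 17 and 20 at 6 days and 10.48, 9.46 and 8.42 without inducer. The lines kept their distance from each other in both groups, so the groups overlapped while the differences of 1.57, 1.78 and 1.81 were close. The groups did not overlap for 266376_at, at 4.51, 4.70 and 4.13 with inducer and 2.73, 2.75 and 2.68 without it, near the floor of the deposited values. It reached 4 on these 3 induced arrays only, so it passed the filter on dim probe sets through the group where it was high. Smallest line differences of 1.16, 0.93 and 0.93 followed for 258259_s_at, 264652_at and 262603_at. The members 254975_at and AT4G33040 also needed induced 6 day arrays to pass the filter. For 254975_at these were lines 9 and 17, at 4.49 and 4.67, beside the empty vector without estradiol at 6 days, 4.78. Outside the induced 6 day arrays AT4G33040 reached 4 only in induced lines 17 and 20 at 3 days, at 4.34 and 4.18. Without gene names it cannot be said whether any unlisted member is an autophagy gene.

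The 3 induced arrays of 6 days lay above the 3 non-induced ones for 33 of the 37 members, against 11% of all kept probe sets. They lay above the other 9 line arrays for 22, against 1.82%, and above all other 13 arrays for 19, against 1.37%. The rule favours such members, so nothing is read from these shares. The 19 comprised 11 of the 16 loci and 8 of the 21 unlisted members. For 10 members the same line was lowest in all 4 combinations of day and treatment, and that was line 20 for 7 of them. The share over all kept probe sets was not computed, so nothing is read from this count.

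The rule fixed the difference within a day, not which side of it moved between days. Between 3 and 6 days the induced level of the late set was higher by a median of 1.05 in line 9, 1.08 in line 17 and 0.71 in line 20, and the non-induced level differed by medians of 0.10, 0.05 and -0.08. In line 9 both induced arrays were of the low kind and both non-induced ones of the high kind, so each of its changes was measured within 1 kind. There 28 of 37 members were higher by 0.6 or more in induced seedlings at 6 days than at 3 days, against 12% of all kept probe sets, and 7 of 37 in non-induced seedlings, against 11.1%. Lower by 0.6 or more were 0 of 37 in induced and 4 of 37 in non-induced seedlings, against 12.8% and 10% of all. The rule used these same 4 arrays, which favours a higher induced and a lower non-induced change, so nothing is read from these shares. In lines 17 and 20 these changes cross the kinds, whose part was not tested. WES1 was an exception in line 9, with -0.11 in induced and -0.67 in non-induced seedlings, and HIS1-3 combined a higher induced level, 1.04, with a lower non-induced one, -1.48. In the empty vector the medians were 0.00 with estradiol and 0.06 without it.

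**Figure D3:**
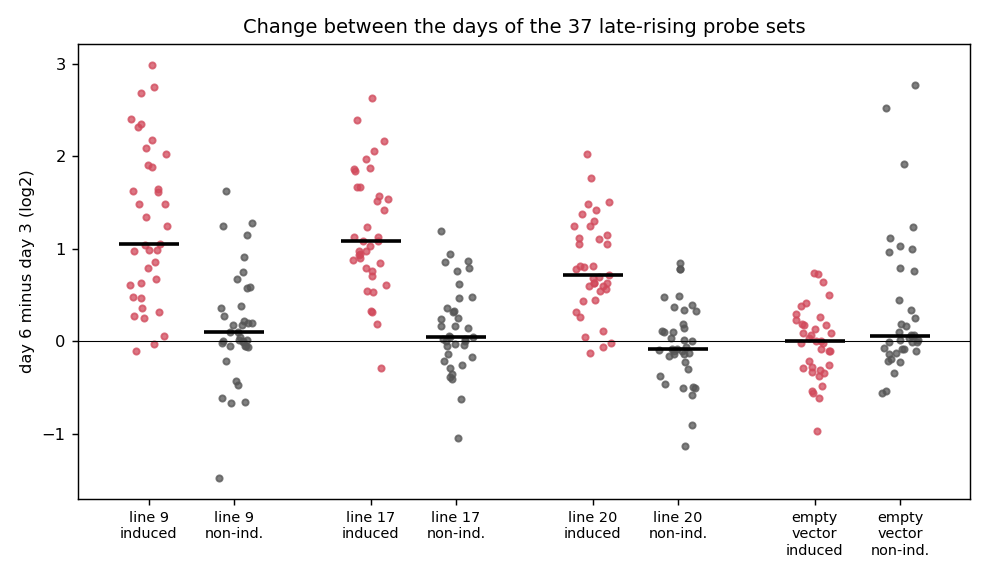
Level at 6 days minus level at 3 days (log2, y axis) of the 37 members for each line and the empty vector, with and without inducer (x axis). Points are members, shifted sideways for visibility, and bars are medians. The induced medians of lines 9, 17 and 20 are 1.05, 1.08 and 0.71, and the other 5 medians lie between -0.08 and 0.10.

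The empty vector at 3 days is the contrast that the rule did not use, and it asks whether estradiol alone moved the late set. For no member did it pass the test: limma called 0 of 37, and 0 of 37 had an unadjusted p under 0.05, against 0% and 0.511% of the 13701 kept probe sets (Benjamini-Hochberg adjusted over all of them). The median difference was -0.03, against 0.02 over all kept probe sets. Members ranged from -0.68 for 245038_at to 0.63 for AT5G19875 (SE 0.47 in limma). A difference of 0.3 or more was found for 6 of 37 (16.2%, against 11.5% of all), and one of -0.3 or lower for another 6 (16.2%, against 9.36%). With 1 array a group the test borrows its spread from the lines, whose groups mix the kinds of array, so the lack of calls does not show that estradiol left the members unchanged.

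At 6 days 25 of 37 members (67.6%, against 40.9% of the kept probe sets) were lower in the empty vector with estradiol than without it, and 5 were lower by 1 or more (13.5%, against 0.985% of the kept probe sets; the rule capped this difference at 0.3, which favours both counts). In all 5 the array without estradiol at 6 days was the highest of the 4 empty-vector arrays. AT4G37290 read 3.87 with estradiol and 6.78 without it at 6 days, and 4.25 and 4.01 at 3 days. AT1G68620 read 5.12 and 7.96, with 5.66 and 6.04 at 3 days, and 254975_at read 2.26 and 4.78, with 2.26 on both 3 day arrays. The values of 2.26 lay near the floor of the deposited values, 2.12. For 245038_at the empty vector read 9.55 with estradiol and 10.72 without it, with 8.81 and 9.49 at 3 days. In these 4 members the empty vector without estradiol at 6 days read higher than 1 or more of the induced lines. WES1 read 6.71 with estradiol at 6 days, while the other 3 empty-vector arrays lay close together, between 7.68 and 7.77, and below all induced lines. Over the whole set, 3 of 37 were higher by 0.6 or more at 6 than at 3 days in the empty vector with estradiol (3.7% of all kept probe sets) and 10 of 37 without it (3.66%). Lower by 0.6 or more were 2 of 37 with estradiol (2.24%) and 0 of 37 without it (2.41%). The rule used both 6 day empty-vector arrays, which favours a high value without estradiol. With 1 array on each side as well, nothing is read from these shares.

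Set against the induced empty vector at 6 days, the late set was higher in the induced lines by a median of 1.2, and all 3 lines exceeded it for 34 of 37 members, against 24.7% of all kept probe sets. The 3 exceptions were 264652_at, 264005_at and 258675_at. Set against the empty vector without estradiol, all 3 induced lines were higher for 28 of 37, against 29.2%. Both counts share arrays with the rule and are descriptions.

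**Figure D4:**
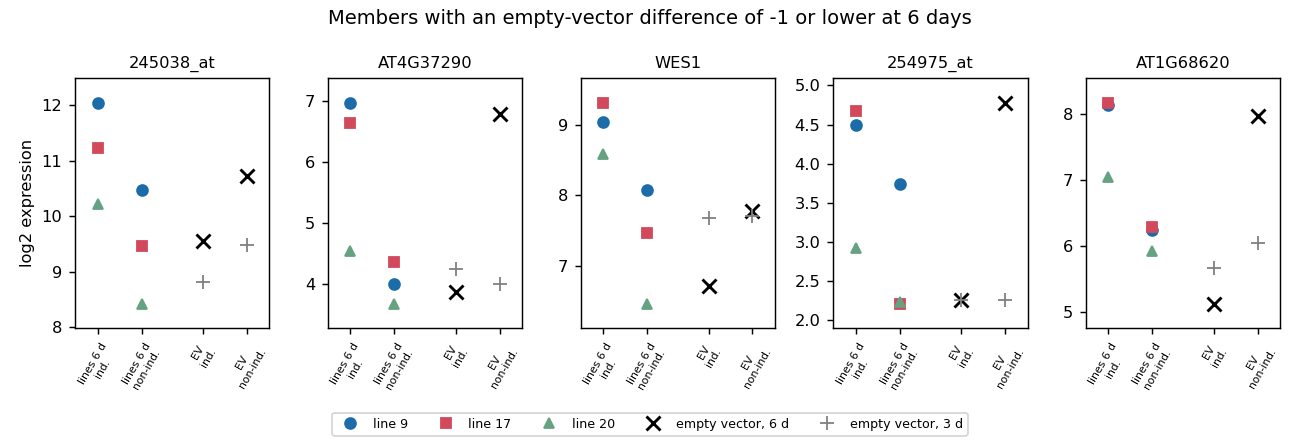
Level (log2 expression, y axis) at 6 days of the 5 members whose empty-vector difference was -1 or lower, in the lines with and without inducer (coloured points) and in the empty vector (black crosses, 6 days; grey plus signs, 3 days). In AT4G37290, 254975_at, AT1G68620 and 245038_at the empty vector without estradiol at 6 days reads 6.78, 4.78, 7.96 and 10.72, above 1 or more of the induced lines, and in WES1 it reads 7.77, below all of them.

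The pathways around TOR were read from 11 lists of 155 loci in all, chosen with earlier results of these data known. Counts from them are therefore descriptions and carry no conclusion about a pathway. Of the 155 loci, 39 had a probe set listed with them, and the others could not be read. Among the 39, 37 were kept and none was a member of the late set. The 16 kept autophagy genes, COR15A and LTI30 had been barred from it by name, so nothing is read from that. At 6 days 0.46% of the kept probe sets passed, 0.394% higher and 0.0657% lower, and 14.1% had an unadjusted p under 0.05. Against this, 3 of the 37 listed genes rose and 0 fell (limma, Benjamini-Hochberg adjusted). They were DFR (5.14 ± 0.60 SE, adjusted p = 0.0085) and UF3GT (3.59 ± 0.52, adjusted p = 0.0196) of anthocyanin synthesis and ATG8H (1.74 ± 0.31, adjusted p = 0.0439) of autophagosomes, whose adjusted p was 0.0755 with the line as a block. None of the 3 was called when line 9 or line 17 was left out, or without the filter on dim probe sets (adjusted p = 0.0593 for DFR, 0.0937 for UF3GT and 0.145 for ATG8H). ATG8H was also not called with quantile normalization (adjusted p = 0.054), with the 25S class as a covariate (0.0837) or without line 20 (0.0898). All 3 had 3 day means above the limit of the late set, 1.88, 0.52 and 0.71.

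Per list, the median 6 day difference was 3.59 over 3 kept of 14 flavonoid genes, 0.55 over 16 kept of 40 autophagy genes and 0.27 over 4 kept of 15 senescence genes, against 0.01 over all kept probe sets. It was -0.24 over 6 kept of 13 genes of branched-chain amino acid breakdown and dark induction, and 0.40 over 4 kept of 14 dehydration and cold genes. The 2 kept of 18 jasmonate genes had a median of 1.40 and the 2 kept of 7 alternative respiration genes 0.95. No gene of the senescence, amino acid, dehydration, jasmonate or respiration lists passed. Their 2 genes of smallest p, as 6 day differences, were SAG29 (3.6) and WRKY53 (-0.65) for senescence and ETFBETA (0.55) and ETFQO (-0.45) for amino acid breakdown. They were COR15A (2.06) and LTI30 (0.80) for dehydration, THI2.1 (2.23) and PDF1.2 (0.58) for jasmonate, and UPOX (1.33) and NDB2 for respiration. The lists for phosphate starvation, salicylate defence, raffinose synthesis and seed storage had 0 genes on a listed probe set. These genes could therefore not be read, whatever their level. Among the listed genes with a 3 day mean below 0, NDB2, an alternative NADH dehydrogenase, differed by 0.56 ± 0.20 at 6 days (SE, limma adjusted p = 0.252). Its line differences were 0.22, 1.09 and 0.37 in lines 9, 17 and 20. ATG101 differed by 0.67 ± 0.16 (SE, limma adjusted p = 0.106) and ATG8C by 0.25. The 3 day means of NDB2 and ATG101 were -0.14 and -0.04. The others were lower on induction at 6 days, at -0.52 for MCCA, -0.45 for ETFQO, -0.31 for MCCB, -0.25 for ATG3, -0.16 for IVD and -0.03 for COR15B. None of these genes passed.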

How the data were processed

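The authors deposited log2 values computed with GCRMA, as the submitters' processing notes name it, of unstated version. They ran from a floor of 2.12 to 15.32, with 30.2% to 31.4% of an array's probe sets less than 0.1 above it, where differences are understated. No value was normalized again. Left out were 64 control and 9045 dim probe sets, which left 13701. The members and gene lists were chosen with earlier results of these data known. Names come from the platform table (13513 probe sets listed with 1 gene, 503 with several), updated through the RefSeq table of TAIR10.1; no coordinates are printed because the array's build is not stated. Promoters were not analysed here.

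The tests used limma (version 3.58.1, under R 4.3.3) on all 16 arrays together, with a mean for each group (lmFit, then eBayes; Benjamini-Hochberg adjusted p under 0.05), checked on simulated data. The number of arrays limits the precision. Named are all members with a symbol, the 8 largest with a locus only and the 5 largest unlisted, by smallest line difference at 6 days; further ones were chosen after their values were seen. Where a listed gene had more than 1 probe set, the brightest stood for it. The same lines gave both treatments, so lines pair the arrays; deviations of an induced and a non-induced array of a line from their group means correlated at -0.23 to 0.23. No arrays looked like copies (highest correlation 0.997). Alternatives were other filters, limits and normalizations, the line as a block, the 25S class as a covariate and leaving out each line.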

Additional observations from a re-analysis of the deposited data

Results flagged for a closer look

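Of the 18 members named by rule, 14 were higher in every line on induction at 6 days while the single empty-vector pair was lower with estradiol. The rule fixed the direction in the lines and capped the empty vector at 0.3, and the difference between the lines and the empty vector was not tested. The empty-vector values (log2, with minus without estradiol, 1 array each) were -2.91 for AT4G37290, -2.84 for AT1G68620, -1.17 for 245038_at and -1.06 for WES1. They were -0.77 for AT3G48020, -0.69 for 264652_at, -0.59 for AT3G10320, -0.55 for both BGLU46 and AT3G61930, -0.41 for 262603_at, -0.40 for HIS1-3 and -0.33 for AT4G33040. The smallest were -0.09 for 266376_at and -0.02 for AT1G59740. Groups of 3 arrays or of 1 are too small for a test of single outlying arrays.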

How the results depend on the processing

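The number of members was 56 with a limit of 0.5 in each line, 17 with 0.8 and 13 with the 3 day limit in each line, and 59 to 144 when 1 line was left out. It stayed within 1.5 times 37 without the filter (44), at the stricter filter (32), with quantile normalization (35), with centred arrays (33) and without the empty-vector limit (42). The median 3 day difference was 0.15 with centred arrays and 0.14 to 0.19 without 1 line, against 0.19; the median 6 day difference was 0.99 to 1.15 without 1 line, against 1.05. The 63 calls at 6 days became 8 without the filter, 30 with the 25S class as a covariate and 65 with the line as a block, and 9, 1 and 55 without line 9, 17 or 20. The listed genes called at 6 days were 2 with the block, with the covariate and with quantile normalization, 0 without the filter, and 0, 0 and 2 without line 9, 17 or 20. In the empty vector at 3 days, 241 probe sets were called without the filter, of which 0 were members; under every other alternative the count was 0, with 31 to 227 at an unadjusted p under 0.05. The block changed no call but that of ATG8H among those named. The 90 recomputed means of the 18 named members were 0.70 to 2.62; the rule asked for 0.6 in each line, so means without 1 line could not lose their sign. Causes were not tested.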

Other observations

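Relatives of the annotated members were sought by name on kept probe sets listed with a gene, after the members were known. Further relatives may lie on unlisted probe sets. Those found are given as values without a test, and they did not share the size of the members at 6 days. The 3 other GH3 genes found, relatives of WES1, had mean differences of -0.01 for GH3.3, -0.28 for GH3.17 and -0.97 for GH3.9. The 3 other UGT72 genes, relatives of GT72B1, had -0.04 for UGT72B3, -0.63 for UGT72E2 and -1.39 for UGT72E1, the last with -3.30, -0.75 and -0.13 in lines 9, 17 and 20. Of 10 other beta-glucosidase genes, with mean differences between -0.95 and 0.62, none reached 0.6 in every line. Of 5 other transporters of the NPF family, AT3G21670 (NPF6.4) and AT1G68570 (NPF3.1) had the highest means, 0.81 and 0.74, but AT3G21670 was at 0.00 in line 20 and AT1G68570 at 0.15 in line 9. The linker histone gene HON4 was at 0.00.

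The 16 member loci lay on all 5 nuclear chromosomes of TAIR10.1, and none was next to another of the 16. The 21 unlisted members could not be placed. Of their 32 neighbouring genes 6 were on a kept probe set listed with a gene. BGLU45, next to BGLU46, differed by 2.15, 0.15 and -0.81 in lines 9, 17 and 20 at 6 days. TBL26, next to GT72B1, differed by 5.29, 2.65 and 1.30, with 0.90 in the empty vector and a 3 day mean of 1.92, which kept it outside the late set. The median span of the member genes was 2094 bases, against 2285 bases over the 7272 kept loci with a span.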
